A study of Mus musculus with 4 samples.

Results

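The 7 genes described here, Gpnmb, Trem2, Cd9, Cd63, Cd68, Lgals3 and Lyz2, are core genes of lipid-associated macrophages, out of 22180 genes measured in whole mouse liver. They were chosen by symbol among the array rows that name exactly 1 gene, and each gene was read from its brightest row by the mean of the 4 arrays. They were picked with their diet difference already known, so their levels and differences are described without a test. The MCD diet livers came from wild-type male C57BL/6J mice, an inbred strain, given a methionine- and choline-deficient (MCD) diet for 20 weeks from 6 weeks of age. They were set against livers of wild-type male C57BL/6J mice of the same age given a normal diet for the same time. Each diet had 2 samples with 1 array each, 4 arrays in all, and the labels do not say whether a sample is 1 animal or a pool. The spread between arrays is therefore that between these samples and may in part be technical.

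Lipid-associated macrophages are phagocytes that appear in fat tissue, arteries and liver when cells around them are overloaded with lipid. They take up lipid and dead cells, digest them in lysosomes, and are known from fatty liver disease in mice, where they gather around fat-laden hepatocytes and scars. Their surface receptor TREM2 binds lipids and lipoproteins and signals through the adaptor TYROBP. CD68, CD63 and GPNMB are membrane proteins of the endosomal and lysosomal compartment, CD9 is a tetraspanin of the cell surface and vesicles, galectin-3 (Lgals3) binds sugars on damaged membranes and matrix, and lysozyme M (Lyz2) cuts bacterial cell walls. Several of these genes are also active outside macrophages, CD9 and CD63 in many cell types and Lyz2 in neutrophils. In whole liver, fewer cells of a type and less RNA per cell cannot be told apart.

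The promoters of Gpnmb, Trem2 and Cd68 are shown because these were the core genes with the largest differences. Each also holds a match to TGANTCA, a loose form of the AP-1 site bound by Fos and Jun factors. They come from RefSeq on build GRCm38.p6 and run from 250 bases before to 30 bases after the transcription start, 5′ to 3′ on the gene's strand. Capitals mark matches to the motifs searched. The Gpnmb window lies at chr6:49036268-49036547 on the plus strand, the Trem2 window at chr17:48346151-48346430 on the plus strand and the Cd68 window at chr11:69666141-69666420 on the minus strand.
Gpnmb: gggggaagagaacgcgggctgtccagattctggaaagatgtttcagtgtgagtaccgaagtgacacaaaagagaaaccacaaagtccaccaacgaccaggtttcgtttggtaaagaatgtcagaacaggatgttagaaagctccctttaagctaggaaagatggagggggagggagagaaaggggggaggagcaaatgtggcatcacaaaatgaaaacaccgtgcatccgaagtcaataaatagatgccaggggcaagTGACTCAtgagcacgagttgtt
Trem2: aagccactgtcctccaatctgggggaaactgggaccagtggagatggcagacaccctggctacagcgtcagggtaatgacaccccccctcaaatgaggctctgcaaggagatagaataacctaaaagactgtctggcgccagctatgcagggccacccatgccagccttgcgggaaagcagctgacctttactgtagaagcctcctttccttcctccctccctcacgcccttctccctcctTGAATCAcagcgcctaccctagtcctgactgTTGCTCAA
Cd68: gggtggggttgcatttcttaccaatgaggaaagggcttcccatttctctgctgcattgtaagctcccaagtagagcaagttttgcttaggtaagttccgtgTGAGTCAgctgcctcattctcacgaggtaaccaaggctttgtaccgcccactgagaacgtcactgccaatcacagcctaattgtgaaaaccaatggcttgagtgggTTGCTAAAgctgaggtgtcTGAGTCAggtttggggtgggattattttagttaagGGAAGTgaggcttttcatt

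All 7 core genes had a promoter window in the RefSeq table, searched from 250 bases before to 50 bases after the start on both strands, where overlapping matches could both count. A match to the loose AP-1 pattern (TGANTCA, with any base at N) was found in 3 of the 7 windows. The share over all 32851 windows of this length was 7.81%. Gpnmb carried TGACTCA from 9 bases into the transcript, Trem2 carried TGAATCA from position -9, and Cd68 carried TGAGTCA at positions -149 and -24. An ETS core (GGAAGT), which PU.1 and other ETS factors of myeloid cells can bind, was found in Cd63, Cd68 and Lyz2 and in 23.8% of all windows. A C/EBP-like site (TTGCNNAA) was found in Trem2 and Cd68, with TTGCTCAA and TTGCTAAA, and in 10.8% of all windows. The CATGTG core of the M-box was found in Cd9 and in 14.2% of all windows. The E-box CACGTG, bound by TFEB and related factors, and TATAAA were found in 0 of the 7 windows, against 7.15% and 13.6% of all windows. The windows also differed in base composition. Cd9 and Lgals3 had 18 CpG dinucleotides each, Gpnmb 9, Cd63 6, Trem2 5, Cd68 4 and Lyz2 1, against a median of 7 over all windows. These matches describe the letters of the windows only.

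All 7 core genes were higher in MCD diet livers, with both MCD diet arrays above both normal diet arrays for each. Over all genes that order of the arrays held for 25.0%, and nothing is read from the count since the genes were chosen with this contrast known. The median difference, MCD diet minus normal diet, was 2.52 on the log2 scale for the 7 genes and -0.03 for all 22180 genes. The smallest, that of Cd9, was matched or exceeded by 287 genes, itself included, and 6 of the 7 lay among the 221 genes with the largest positive differences.

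**Figure D1:**
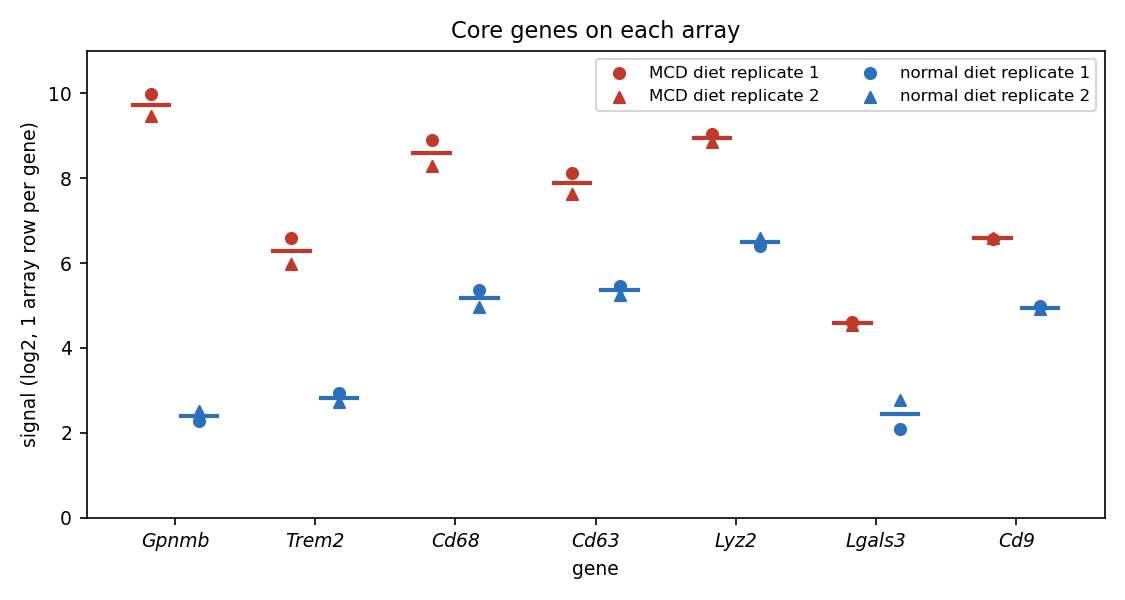
Deposited log2 signal (vertical axis) of the 7 core genes (horizontal axis, ordered by difference) on the 2 MCD diet arrays (red, left in each pair) and the 2 normal diet arrays (blue, right). Circles are replicate 1, triangles replicate 2 and bars the means. The diets do not overlap for any of the 7 genes, and Gpnmb is separated by the widest gap.

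The receptor gene Trem2 had a log2 signal of 6.60 and 5.99 on the MCD diet arrays, against 2.94 and 2.72 on the normal diet arrays. The gap between the lower MCD diet array and the higher normal diet array was 3.05, larger than the difference of 0.61 between the MCD diet arrays and of 0.22 between the normal diet arrays. The difference of means was 3.47 ± 0.22 (here and below ± gives limma's standard error of a log2 difference, with n = 2 arrays in each diet), or 11.1-fold.

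Among the lysosomal and endosomal membrane proteins, Gpnmb, a glycoprotein of macrophages and pigment cells, differed by far more than the others. It had 9.99 and 9.47 in MCD diet livers, against 2.29 and 2.51 in normal diet livers, a difference of 7.33 ± 0.20 (161-fold) that was the largest positive difference of the 22180 genes. Its normal diet mean of 2.40 lay above 42.4% of all array rows, and its MCD diet mean of 9.73 above 99.2%. Cd68, the sialomucin that is the usual tissue stain for macrophages, had 8.90 and 8.29 in MCD diet livers, against 5.38 and 4.96 in normal diet livers, a difference of 3.43 ± 0.24 (10.8-fold). Both diets had their higher Cd68 value in replicate 1. Cd63, a tetraspanin of late endosomes and exosomes, had 8.13 and 7.64 in MCD diet livers, against 5.46 and 5.26 in normal diet livers. Its difference of 2.52 ± 0.19 (5.75-fold) was the middle one of the 7.

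Lyz2, the lysozyme of macrophages and neutrophils, had 9.04 and 8.85 in MCD diet livers, against 6.40 and 6.58 in normal diet livers, a difference of 2.46 ± 0.14 (5.50-fold). Its normal diet mean lay above 90.2% of all rows and its MCD diet mean above 98.4%. Lgals3, which encodes galectin-3, had 4.62 and 4.54 in MCD diet livers, against 2.10 and 2.78 in normal diet livers. Its normal diet arrays differed by 0.68, more than those of any other of the 7 genes, while its MCD diet arrays differed by 0.08. The difference of means was 2.13 ± 0.23 (4.39-fold). The normal diet means of Gpnmb, Trem2 and Lgals3 lay above 42.4%, 54.9% and 44.0% of all rows. No background or detection value was used, so the folds of these 3 genes depend on how such dim signals were summarised.

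Cd9 had 6.58 and 6.59 in MCD diet livers, against 4.99 and 4.91 in normal diet livers. Its difference of 1.63 ± 0.12 (3.11-fold) was the smallest of the 7, and its MCD diet arrays were the closest pair. Cd9 was also the only core gene with a further row of its own. That row was dim and read 2.08 and 2.02 in MCD diet livers, against 2.32 and 2.23 in normal diet livers, a difference of -0.22. The rule took the brighter row, with a mean over the 4 arrays of 5.77, against 2.16 for the other. When both rows were averaged, the difference of Cd9 was 0.71.

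**Figure D2:**
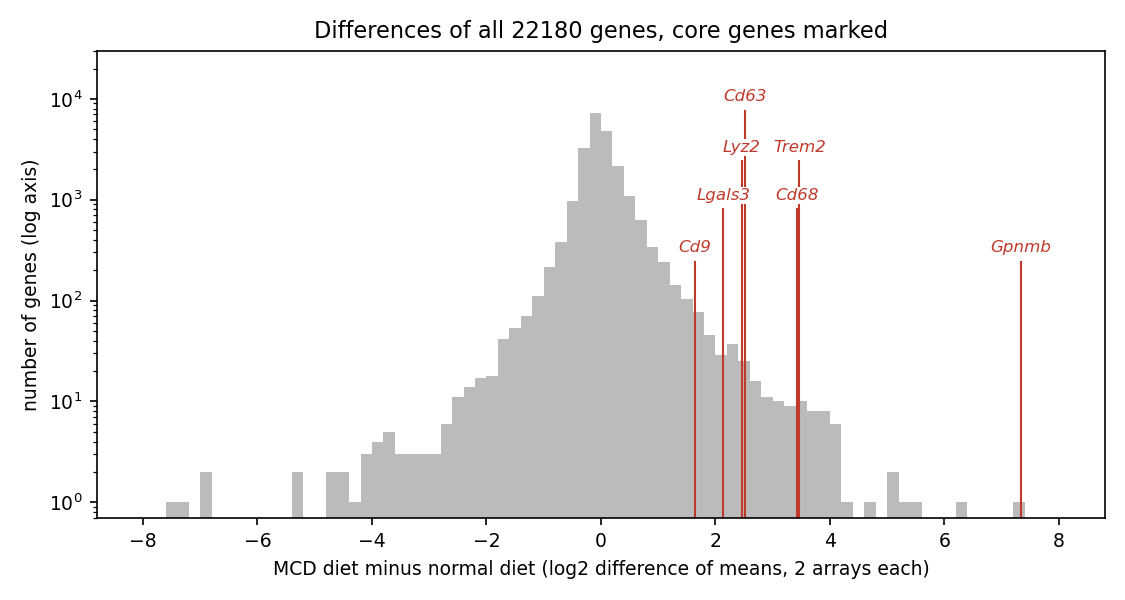
Number of genes (vertical log axis) by MCD diet minus normal diet log2 difference of means (horizontal axis, 2 arrays per diet) for all 22180 genes, with red lines at the 7 core genes. The core genes lie between 1.63 (Cd9) and 7.33 (Gpnmb), to the right of most genes.

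The core genes did not differ to the same extent, and the MCD diet replicates were not alike. MCD diet replicate 1 was above replicate 2 for 6 of the 7 genes, all but Cd9, while over all genes it was above for 47.6%. The differences between these arrays were 0.61 for both Trem2 and Cd68, 0.53 for Gpnmb and 0.49 for Cd63, against a median of 0.15 in size over all genes. The same order held for 19 of 23 general macrophage and monocyte genes, whose mean signal was 5.51 and 5.22 in MCD diet replicates 1 and 2, against 4.28 and 4.19 in normal diet replicates 1 and 2. Without MCD diet replicate 1 the difference of Gpnmb was 7.07 and that of Trem2 3.16, and without MCD diet replicate 2 they were 7.59 and 3.77. Over the 4 arrays, with each gene centred on its own mean, the most alike pair was Trem2 and Cd68 (Euclidean distance 0.15 on the log2 scale) and the next was Cd63 and Lyz2 (0.35). Gpnmb stood apart, at 3.88 or more from each of the other 6.

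General genes of macrophages and monocytes were higher as well, mostly by less than the core genes. Of 23 measured, 17 rose and 0 fell (limma adjusted p under 0.05 over all 22180 genes; 19 and 0 at an unadjusted p under 0.05), where 6.37% of all genes rose and 3.62% fell. The median of the list was 1.09. Cybb, the oxidase subunit of phagocytes, rose by 2.52 ± 0.21 (limma adjusted p = 0.00203), the integrin Itgam by 2.23 ± 0.29 (adjusted p = 0.00752), the Fc receptor gamma chain Fcer1g by 1.90 ± 0.22 (adjusted p = 0.00565) and the pore-forming protein gene Mpeg1 by 1.67 ± 0.18 (adjusted p = 0.00422). Adgre1, which encodes the macrophage antigen F4/80, differed by 1.09 ± 0.29 and did not pass (adjusted p = 0.0748), with 6.37 and 5.45 in MCD diet livers against 4.89 and 4.76 in normal diet livers. The Adgre1 difference was 0.62 without MCD diet replicate 1 and 1.55 without MCD diet replicate 2, where it passed. It passed too with the replicate number as a block in the fit. The count of 17 was 11 without normal diet replicate 1 and 10 without normal diet replicate 2.

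To set the core genes against this wider shift, the mean of the 23 general genes was subtracted on each array, a step chosen after the values were seen. The mean itself differed by 1.13 between the diets. After subtraction both MCD diet arrays stayed above both normal diet arrays for all 7 core genes. The share of all genes with this order after subtraction was not computed, and the core genes were chosen with the contrast known. Nothing is therefore read from this count. The mean subtracted includes the 6 general genes that were not called. It also includes dim genes, since 19 of the 23 had a normal diet signal above the median of all rows. The remaining difference was 6.20 for Gpnmb, 2.33 for Trem2, 2.30 for Cd68, 1.39 for Cd63, 1.33 for Lyz2, 1.002 for Lgals3 and 0.50 for Cd9. MCD diet replicate 1 was now above replicate 2 for 4 of the 7. For Cd9 the values were 1.06 and 1.37 in MCD diet livers, against 0.71 and 0.73 in normal diet livers, so its gap of 0.34 was close to the 0.31 between the MCD diet arrays. For Lgals3 the gap between the diets was 0.51, smaller than the 0.78 between its normal diet arrays.

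**Figure D3:**
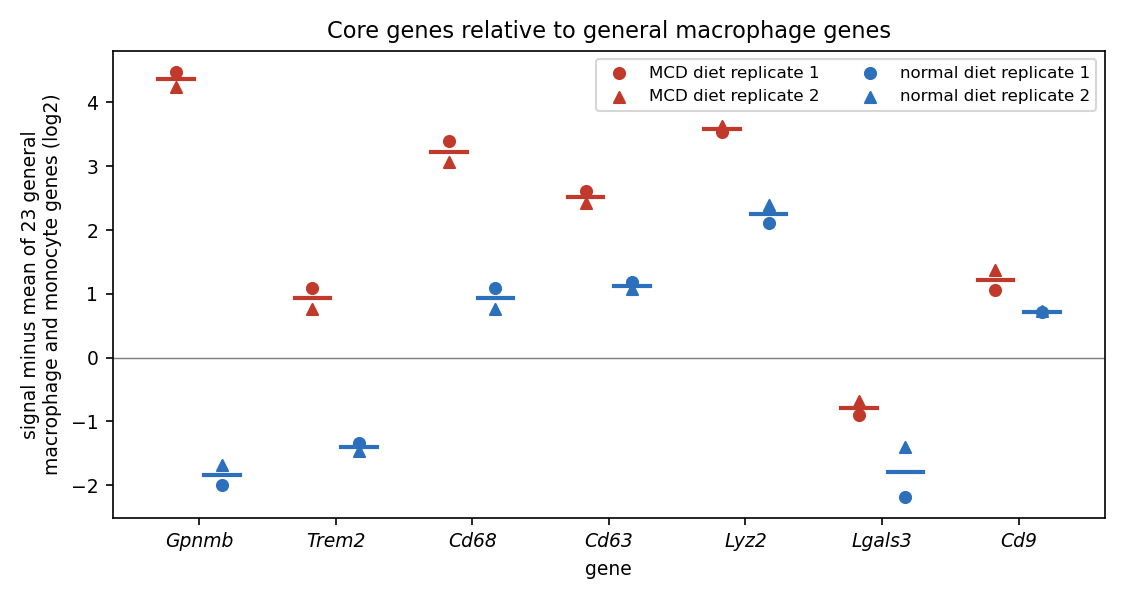
Log2 signal of each core gene minus the mean log2 signal of 23 general macrophage and monocyte genes on the same array (vertical axis), for MCD diet arrays (red, left) and normal diet arrays (blue, right). Circles are replicate 1, triangles replicate 2 and bars the means, and the diets stay apart for all 7 genes, least for Cd9.

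Further genes of lipid-associated macrophages rose with the core genes. Of 28 measured, 22 rose and 0 fell (27 and 0 at an unadjusted p under 0.05), against 6.37% and 3.62% of all genes. Their median was 1.27, and 22 of the 28 had a normal diet signal above the median of all rows. The list was written with earlier results of these data known and is not independent evidence of its direction. The macrophage elastase gene Mmp12 rose by 5.59 ± 0.27 (limma adjusted p = 0.000385), the proton pump subunit gene Atp6v0d2 by 4.64 ± 0.22 (adjusted p = 0.000357), the glucan receptor gene Clec7a by 4.34 ± 0.14 (adjusted p = 0.000167) and the lipoprotein lipase gene Lpl by 4.01 ± 0.29 (adjusted p = 0.0013). Apoe, which encodes a lipoprotein component and TREM2 ligand that hepatocytes also make, had 9.11 and 9.35 in MCD diet livers, against 8.70 and 8.93 in normal diet livers, and did not pass (difference 0.42 ± 0.15, adjusted p = 0.157).

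Genes listed around TREM2 gave a mixed picture. The Trem2 complex list held 12 genes for its complex, signalling, shedding and ligands, and also Sirpa, another receptor of phagocytes. Apoe was counted here and with the further lipid-associated macrophage genes. Of the 12, 5 rose and 0 fell, against 6.37% and 3.62% of all genes. At an unadjusted p under 0.05 the counts were 8 and 0, and the median difference was 0.60. Tyrobp, the adaptor without which the receptor does not signal, had 6.99 and 5.94 in MCD diet livers, against 4.35 and 3.94 in normal diet livers. It rose by 2.32 ± 0.34 (limma adjusted p = 0.0122), a call lost without normal diet replicate 2, and its MCD diet arrays lay 1.05 apart. Sirpa, an inhibitory receptor of phagocytes that recognises CD47, rose by 2.36 ± 0.13 (adjusted p = 0.000601). Inpp5d, the phosphatase SHIP1 that restrains such receptors, rose by 1.21 ± 0.22 (adjusted p = 0.0225), and Adam10, a protease that sheds the TREM2 ectodomain, by 1.04 ± 0.16 (adjusted p = 0.013). The count of 5 was 2 without MCD diet replicate 1, where the calls of Inpp5d and Adam10 were lost, and 1 without normal diet replicate 2. The call of Inpp5d was also lost without MCD diet replicate 2.

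Most close relatives of the core genes were not called in either direction. Of 26 relatives measured, 6 rose and 0 fell (10 and 0 at an unadjusted p under 0.05), with a median of 0.06. The shares over all genes were 6.37% and 3.62%, so 0 calls in a small family is not read as a result. Only 17 of the 26 had a normal diet signal above the median of all rows. For the dim ones, no difference cannot be told from no signal. Pmel, the pigment cell homologue of Gpnmb, differed by 0.19 ± 0.13 (limma adjusted p = 0.447). The 5 other TREM family receptors differed by -0.28 to 0.05 and 0 of them were called in either direction (0 at an unadjusted p under 0.05), Trem1 among them at -0.26 ± 0.12 (adjusted p = 0.282). The LAMP family relatives of Cd68 differed by -0.10 to 0.13, also with 0 of 3 called (0 at an unadjusted p under 0.05). Lyz1, the intestinal lysozyme gene next to Lyz2 in the genome, had 2.48 and 2.10 in MCD diet livers, against 2.47 and 2.43 in normal diet livers, a difference of -0.16 ± 0.16 (adjusted p = 0.609). The 2 lysozyme genes have similar sequences, and how far their probes share signal was not tested.

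Tetraspanins and galectins gave the 6 relatives that rose. Of 9 tetraspanins beside Cd9 and Cd63, 5 rose. Tspan8, a tetraspanin of epithelia, rose by 3.45 ± 0.19 (limma adjusted p = 0.000601), Cd53, a tetraspanin of white blood cells, by 2.67 ± 0.17 (adjusted p = 0.000951) and Cd37, another of white blood cells, by 1.10 ± 0.13 (adjusted p = 0.00539). Tspan3 and Cd151, named after their values were seen, rose by 0.99 ± 0.16 (adjusted p = 0.0176) and 0.54 ± 0.12 (adjusted p = 0.0462), the first call lost without MCD diet replicate 2 or normal diet replicate 2 and the other without any 1 of the 4 arrays. Cd81, a tetraspanin that like CD9 is found in vesicles, differed by 0.07 ± 0.12 at a signal of 10.4 in MCD diet and 10.3 in normal diet livers (adjusted p = 0.791). Of 7 other galectin genes only Lgals1 passed, at 1.16 ± 0.22 (adjusted p = 0.0256), a call that needed both MCD diet arrays and normal diet replicate 1. The count of 6 relatives was 3 without MCD diet replicate 2.

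**Figure D4:**
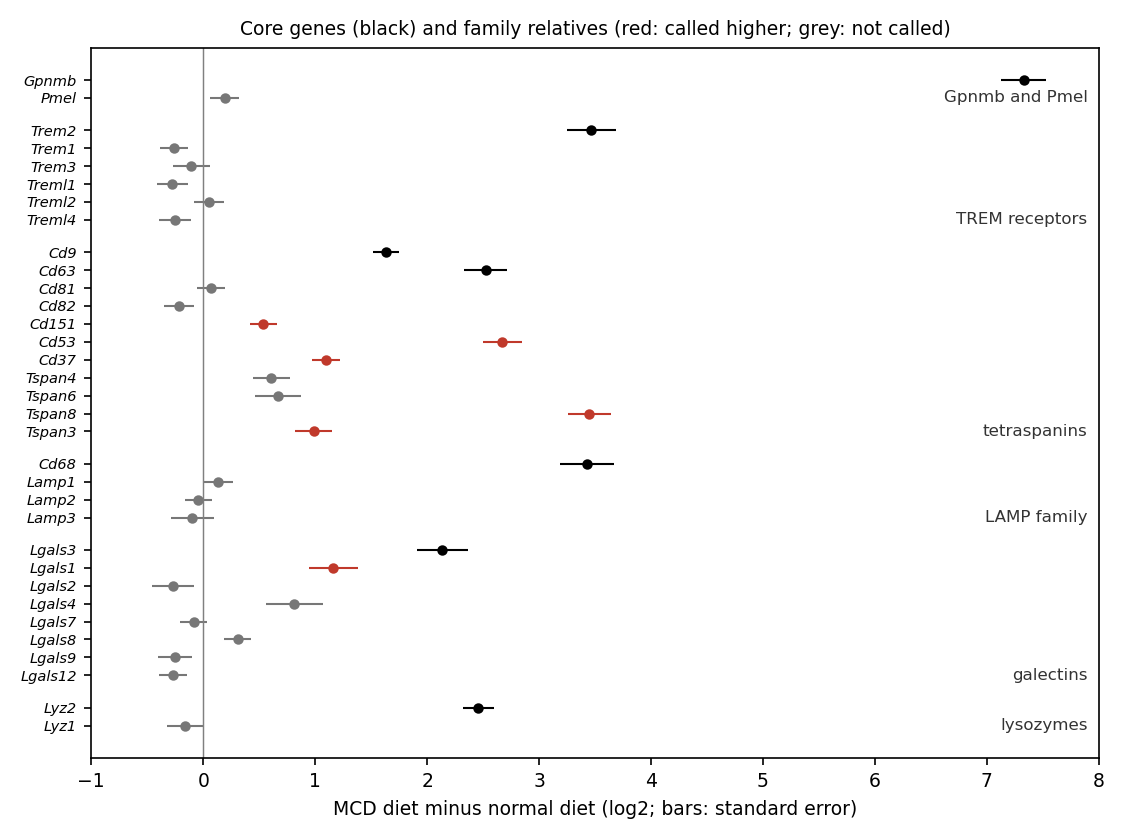
MCD diet minus normal diet log2 difference with its standard error (horizontal axis, 2 arrays per diet) for the core genes (black) and their family relatives (red where called higher by limma, grey where not called), grouped by family down the page. The TREM, LAMP, lysozyme and Pmel relatives lie between -0.28 and 0.19, while Tspan8 and Cd53 reach 3.45 and 2.67.

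The genes beside the core genes on the chromosomes were also examined. Of the 28 nearest measured genes, 2 on each side of each core gene, 2 rose and 0 fell by limma (5 higher and 2 lower at an unadjusted p under 0.05), where 6.37% of all genes rose and 3.62% fell, and nothing is read from these counts. Both lie beside Trem2 on chromosome 17 and were named after their values were seen. B430306N03Rik rose by 0.85 ± 0.13 (limma adjusted p = 0.0126) and the transcription factor subunit gene Nfya by 0.77 ± 0.14 (adjusted p = 0.023), where Trem2 differed by 3.47. The first call was lost without MCD diet replicate 1 or normal diet replicate 2, and that of Nfya without MCD diet replicate 2 and without each normal diet array. Treml1 and Treml2, its other neighbours, differed by -0.28 ± 0.14 and 0.05 ± 0.13, the sign of Treml2 turning without normal diet replicate 1.

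Known binding partners and cargo of the core proteins were in part higher. Of 13 measured, 4 rose and 1 fell (7 and 1 at an unadjusted p under 0.05), against 6.37% and 3.62% of all genes. Their median was 0.34. Cd44, the hyaluronan receptor and a GPNMB partner, rose by 1.81 ± 0.16 (limma adjusted p = 0.00264), and Ptgfrn, a CD9 partner, by 1.18 ± 0.18 (adjusted p = 0.0132). The integrin Itga3, which pairs with tetraspanins, rose by 1.14 ± 0.21 (adjusted p = 0.0251), while the heparan sulfate proteoglycan gene Sdc4 fell by 1.11 on the log2 scale (standard error 0.12, adjusted p = 0.00433). The count of 4 was 1 without MCD diet replicate 1 and 1 without normal diet replicate 2, where the calls of Ptgfrn and Itga3 were lost. The call of Itga3 was also lost without normal diet replicate 1.

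A list of lysosomal genes and their regulators gave a smaller shift than the core genes. The MiT/TFE factors (Mitf, Tfeb, Tfe3 and Tfec) switch on lysosomal genes, and MITF is a known activator of Gpnmb. Of 22 of these factors and lysosomal genes, 6 rose and 0 fell (10 and 1 at an unadjusted p under 0.05), with a median of 0.15. All genes together gave 6.37% and 3.62%. Ctsd and Hexa, among the 6, were also counted with the further lipid-associated macrophage genes. Other lysosomal genes were counted only there, among them Ctsb, Ctsl, Ctsz and Ctss, which rose, and Lipa, which did not pass. The median of 0.15 therefore depends on how genes were allotted to the lists. Rragd, a GTPase gene of nutrient sensing at the lysosome, rose by 1.82 ± 0.28 (limma adjusted p = 0.0136), the cathepsin gene Ctsd by 1.18 ± 0.15 (adjusted p = 0.00724), Psap by 0.98 ± 0.12 (adjusted p = 0.0058) and the glucuronidase gene Gusb by 0.98 ± 0.16 (adjusted p = 0.0155). Mitf itself differed by 0.12 ± 0.16 (adjusted p = 0.714), with 4.36 and 4.08 in MCD diet livers against 3.99 and 4.21 in normal diet livers, and its sign turned under quantile normalization and without MCD diet replicate 1. Tfec, the family member most restricted to macrophages, differed by 0.68 ± 0.19 (adjusted p = 0.0879). The count of 6 was 2 without MCD diet replicate 1 and 3 without normal diet replicate 2. The call of Gusb was lost in both and without normal diet replicate 1, and that of Rragd without either MCD diet array.

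Kupffer cell genes, which mark the resident macrophages of the liver, moved in both directions. Of 15 measured, 3 rose and 4 fell (5 and 6 at an unadjusted p under 0.05), against 6.37% and 3.62% of all genes. Their median was -0.14. Those that rose were Id3, Hmox1 and Il18bp, the last 2 named after their values were seen. Clec4f, the lectin that defines these cells, had 4.88 and 4.34 in MCD diet livers, against 6.26 and 6.29 in normal diet livers, and fell by 1.66 on the log2 scale (standard error 0.19, limma adjusted p = 0.00546). Timd4, a receptor for dying cells, fell by 0.89 (standard error 0.16, adjusted p = 0.024), a call that needed both normal diet arrays and MCD diet replicate 1. Cd163 fell by 2.06 (standard error 0.13, adjusted p = 0.001) and Fcna by 1.20 (standard error 0.14, adjusted p = 0.00492). Id3, a transcription factor gene of Kupffer cells that is also active elsewhere, rose by 1.03 ± 0.17 (adjusted p = 0.018), a call that needed both MCD diet arrays and normal diet replicate 2. The count of 3 was 1 without MCD diet replicate 1 and 1 without either normal diet array.

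**Figure D5:**
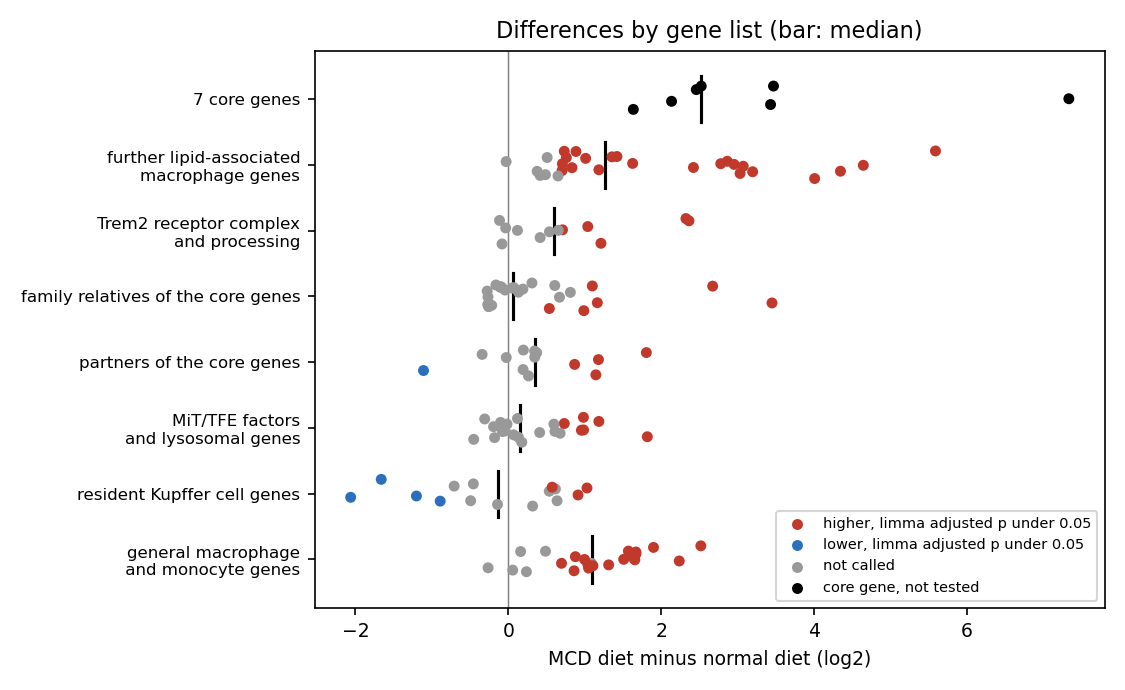
MCD diet minus normal diet log2 difference (horizontal axis) of each gene in the 7 core genes (black, not tested) and 7 gene lists (rows), with the median as a bar; points are spread vertically for display. Red and blue points passed limma's adjusted p under 0.05, and the medians are 2.52 for the core genes, 1.27 for further lipid-associated macrophage genes and -0.14 for resident Kupffer cell genes.

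Markers of other cells that can carry core transcripts also differed between the diets, and their part in the core gene differences was not tested. Signals summed on the linear scale are given for each list, so the brightest genes weigh most. The shares called over all genes were 6.37% higher and 3.62% lower. Cholangiocyte markers rose in 10 of 11, with a sum of 910 and 768 in MCD diet livers against 444 and 314 in normal diet livers. Krt8 and Krt18 were the brightest and weighed most in this sum. Krt8 had 8.42 and 8.23 in MCD diet livers, against 7.59 and 7.31 in normal diet livers. Krt18, the only marker of the list not called, had 7.96 and 7.57 against 7.44 and 6.46. The count was 5 without MCD diet replicate 1, 6 without normal diet replicate 2 and 6 under the stricter filter on dim genes, and Epcam, which defines these cells, rose by 2.34 ± 0.19 (limma adjusted p = 0.00189). Stellate cell and myofibroblast markers rose in 8 of 14, with 2222 and 2238 against 1064 and 870 in normal diet livers, led by Lum at 2.91 ± 0.17 (adjusted p = 0.00064). That count was 5 without MCD diet replicate 2 or normal diet replicate 2. Neutrophil markers, of interest for Lyz2, were mostly dim, with 3 of 14 above the median of all rows in normal diet livers. Their sum was 129 and 86.0 in MCD diet livers against 66.8 and 68.5 in normal diet livers. Of the 14, 12 were not called, from Mmp9 at -0.06 to Ngp at 1.29. The other 2 rose, though in which cells was not tested. The 2 were Clec4d at 1.60 ± 0.20 (adjusted p = 0.00733) and Csf3r at 0.92 ± 0.14 (adjusted p = 0.0125), and the count was 6 without MCD diet replicate 2 and 1 without MCD diet replicate 1 or normal diet replicate 2.

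Markers of other cell types were counted in the same way, where 6.37% of all genes rose and 3.62% fell. Dendritic cell markers gave 0 calls of 11 (limma; 2 higher and 0 lower at an unadjusted p under 0.05), with 185 and 176 against 147 and 159 in normal diet livers. T and NK cell markers gave 0 calls of 12 (2 higher and 1 lower at an unadjusted p under 0.05), with 88.7 and 93.8 against 85.5 and 81.4 in normal diet livers. B and plasma cell markers rose in 1 of 10, Jchain, a call that needed both normal diet arrays and MCD diet replicate 1. Their sum was 124 and 121 against 152 and 135 in normal diet livers. Sdc1, the brightest of the 10 (5.93 and 5.99 in MCD diet livers, against 6.59 and 6.32), weighed most in it. The sum without Sdc1 was not computed. Endothelial markers rose in 1 and fell in 3 of 13 (2 higher and 6 lower at an unadjusted p under 0.05), with 797 and 743 against 970 and 891 in normal diet livers, and 1 fell without MCD diet replicate 1 or normal diet replicate 1. Cd34, a sialomucin of vascular endothelium, rose by 1.56 ± 0.14 (limma adjusted p = 0.00234). Oit3, a gene of liver sinusoidal endothelium, fell by 1.22 (SE 0.13, adjusted p = 0.0039). The hyaluronan scavenger receptor gene Stab2 fell by 0.82 (SE 0.15, adjusted p = 0.0248), a call lost without either MCD diet array or normal diet replicate 1. Kdr, the main receptor for vascular endothelial growth factor, fell by 0.76 (SE 0.13, adjusted p = 0.02), a call lost without MCD diet replicate 1 or either normal diet array. The part of these shifts in the core gene differences was not tested.

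Hepatocyte markers, which define the labelled tissue, were bright on average on all arrays. Their mean log2 signal was 10.5 and 10.3 in MCD diet livers, against 10.7 and 10.7 in normal diet livers. Ass1 was far dimmer than this mean, with 5.04 and 3.57 in MCD diet livers against 6.09 and 5.74 in normal diet livers. Of 15 measured, 0 rose and 2 fell (1 and 5 at an unadjusted p under 0.05), against 6.37% and 3.62% of all genes. Serpina1a, which encodes a secreted protease inhibitor, fell by 1.06 (SE 0.23, limma adjusted p = 0.0396), a call lost with the replicate number as a block, without MCD diet replicate 1 and without either normal diet array. Apoa1, the main protein of high-density lipoprotein, fell by 0.50 (SE 0.12, adjusted p = 0.0493), a call lost with quantile normalization, median centring, the filter on the dimmest 25% of genes, the replicate number as a block and each array left out in turn. The largest differences in the list were those of the urea cycle gene Ass1 (-1.61 ± 0.45, adjusted p = 0.0825) and the gluconeogenic gene Pck1 (-1.49 ± 0.37, adjusted p = 0.0586), which did not pass and were named after their values were seen. The table used here gives no detection calls, so which markers are absent cannot be told.

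The genes most like each core gene were sought by the distance of centred log2 values over the 4 arrays, which mainly matches the size of the diet difference, with the core genes themselves and predicted genes left out of the search. Scara3, a scavenger receptor family gene, was nearest to both Trem2 and Cd68, at 0.08 from each. Acot2, a mitochondrial acyl-CoA thioesterase gene, was among the nearest 3 of both as well. The genes nearest to Lyz2 were Slamf7 (0.11), Sirpa (0.12) and Mamdc2 (0.12). Arhgef2 (0.08) was nearest to Cd63, Dapp1 (0.07) to Cd9 and Apoa4 (0.25) to Lgals3. Sult1e1, the closest to Gpnmb, was 1.26 away, with a difference of 6.34.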

How the data were processed

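Liver RNA was measured on Mouse Gene 2.1 ST arrays. The deposited values are log2 signals, 1 per transcript row and array, made by the authors. The submitters' processing notes name Transcriptome Analysis Console and no version. How background was corrected and arrays were normalized is not given in the sources used. The log2 base was inferred from the values, and every fold depends on it. Array medians lay between 2.57 and 2.65.

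Of 34472 rows, 23521 named exactly 1 gene in the platform annotation, 1814 several and 9137 none. The brightest row of each gene gave 22180 genes. No filter or pseudocount was used. Diets, taken from the sample titles, were compared with limma 3.58.1 (R 4.3.3) over all genes, two-sided, without a block, with Benjamini-Hochberg adjustment and a threshold of 0.05. In 20 simulated data sets of 22180 genes, 200 of them shifted, the fit found 51.6% of genes shifted by 1 (log2) and 96.5% of genes shifted by 2. Far more genes were called in these data (1412 higher and 802 lower), so these rates need not apply to them. The correlation, across genes, of the replicate 1 minus 2 differences between diets was 0.05, and nothing in the labels pairs the samples. The number of arrays limits the precision given here.

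The core genes and all lists were chosen with earlier results of these data known. Named were the core genes, up to 4 called genes per list with the largest differences, 11 fixed genes, and the nearest 3 genes of each core gene by distance. Promoters and motif shares come from RefSeq, GRCm38.p6. Alternatives were quantile normalization, median centring, leaving out dim genes, an intensity trend, averaging rows, a replicate block and leaving out each array.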

Additional observations from a re-analysis of the deposited data

How the results depend on the processing

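Across the 11 alternatives each core gene stayed higher in MCD diet livers, with Gpnmb between 7.07 and 7.59 and Cd9 between 0.71 and 1.67, the lowest with the mean of all rows. The counts moved mainly when an array was left out. Leaving out each array in turn, genes that rose numbered 688 to 1011 (1412 with all arrays) and genes that fell 362 to 482 (802). Rising genes numbered 15 to 18 among further lipid-associated macrophage genes, 1 to 5 in the Trem2 complex, 3 to 5 among family relatives, 1 to 3 among partners, 2 to 4 among MiT/TFE and lysosomal genes, 1 to 2 among Kupffer cell genes and 10 to 15 among general macrophage genes. The median of the core genes lay between 2.36 and 2.77. A lone array was assumed to vary like the other diet. The sign turned for Mitf, at -0.061 under quantile normalization and -0.022 to 0.26 with an array left out, for Lyz1, at -0.35 to 0.026 with an array left out, and for Treml2, at -0.071 to 0.17 with an array left out. None of them was called, and the cause was not tested. With a replicate block 1288 genes rose and 662 fell, and the replicate numbers are not known to pair the samples. Under it Adgre1 and Tfec passed the threshold, and Cd151 and the hepatocyte markers Serpina1a and Apoa1 lost their calls. Other named genes were followed only in part, and those followed did not change. Ass1, Pck1, Hmox1 and Il18bp were among those not followed. The number of arrays limits these results, and so do dim signals, for which no background value was used.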
